A study of Mus musculus with 12 samples.

Results

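The RNA left in arcuate lysates after capture of POMC-cell ribosomes was compared between mice at postnatal day 60 (P60) and pups at postnatal day 12 (P12). The comparison used 6 of the 12 libraries of the study, 3 P60 supernatants and 3 P12 supernatants, chosen by their age and fraction labels. All mice were Pomc-CreERT2; Rosa26-eGFPL10a animals labelled C57BL/6, in which tamoxifen lets Cre made from the Pomc gene switch on a GFP-tagged ribosomal protein. Both ages received tamoxifen by intraperitoneal injection, and the interval between the last injection and collection was not the same at the 2 ages. The arcuate nucleus was cut from coronal brain slices, its lysate was passed over beads with antibody to GFP, and the remaining lysate is the supernatant. It holds RNA of all cells of the piece, neurons and glia, with that of POMC cells that the beads did not bind, so it measures the tissue and not a cell type. The sources used here give neither the sex of the mice nor how many were joined in a library. The study describes independent experiments, so p-values here measure the spread between 3 preparations at each age.

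The arcuate nucleus lies at the base of the hypothalamus beside the third ventricle and holds the POMC neurons that restrain feeding and the AGRP neurons that drive it. In rodents its projections reach their targets during the first weeks after birth, and myelin, perineuronal matrix and adult receptor subunits appear over the same and the following weeks. From this age to adulthood, neurons leave their growth phase, oligodendrocyte precursors mature into myelinating cells, and sex steroids rise at puberty.

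Total counts were 16143825 to 22422476 in P60 supernatants and 23785154 to 35249290 in P12 supernatants. Of 19878 genes in the table, 917 had no count in the 6 libraries, and 15251 passed the filter on low counts and were tested. The first principal component held 61.0% of the variance and separated the ages. The second held 11.8% and set P60 supernatant 3, at -30.5, apart from P60 supernatants 1 and 2, at 21.3 and 10.6. Levels are given in CPM, in which each count is divided by the total of its library, with no TMM factor. Log2 fold changes, given ± SE, are P60 over P12, and a gene is called where the Benjamini-Hochberg adjusted p of edgeR's quasi-likelihood test was under 0.05.

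At P60, 3182 genes were higher, 20.9% of those tested, and 3168 were lower, 20.8%, so that 41.6% of tested genes were called. Most of these differences were small, with a common spread between replicates of 9.55% (biological coefficient of variation). A change of more than 2-fold was seen in 585 of the called genes that rose and 516 that fell, and one of more than 8-fold in 38 and 14. The 3 P60 and the 3 P12 CPM values did not overlap for 48.5% of tested genes. The median log2 fold change over all tested genes was 0.00, and the counts of each gene list stand against that value and those shares. Lists and members were chosen with earlier results of these data known, so these counts are descriptions and not tests. In bulk RNA, fewer cells of a type and less RNA per cell cannot be told apart.

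Some markers of tissue around the arcuate nucleus and of sex moved with age, and their part in the other results was not tested. In the list of other brain regions, 3 of 23 tested members were higher and 6 lower (5 and 3 without P12 supernatant 1), and the summed level was 467 to 508 CPM at P60, against 369 to 452 CPM at P12. Prkcd, a kinase gene abundant in thalamic relay neurons, had 102, 75.4 and 108 CPM at P60, against 6.73, 11.7 and 6.81 CPM at P12, and Tbr1, a cortical transcription factor, had 3.64, 3.97 and 1.98 CPM at P60, against 10.5, 13.2 and 10.6 CPM at P12. The summed level of 13 choroid plexus markers was 138 to 183 CPM at P60 and 67.4 to 69.1 CPM at P12, of which Enpp2, a gene that oligodendrocytes also make, averaged 91.3 CPM at P60 and 25.8 CPM at P12. Of the 13, 4 were higher, 1 was lower (Sostdc1, at -1.64 ± 0.44), Kl, Prlr and Kcnj13 were not called, and 5, Folr1 and Aqp1 among them, were too low to test. Ttr, the transthyretin gene of that tissue, had 7.51, 7.18 and 36.3 CPM at P60, against 1.77, 2.33 and 0.511 CPM at P12. Its value in P60 supernatant 3 stood far above the other 5 libraries. Without that library its log2 fold change was 2.22, against 3.45 ± 0.44 with it. Y-linked Ddx3y had 53.2, 62.8 and 55.1 CPM at P60, against 26.6, 23.2 and 18.8 CPM at P12, and Xist, made from the inactive X of females, had 4.87, 3.75 and 3.65 CPM at P60, against 9.63, 8.24 and 11.7 CPM at P12. Ddx3y was higher and Xist lower at P60, and the sex mix and age cannot be told apart for these genes. Of the arcuate nucleus itself, Pomc, Agrp, Npy, Ghrh, Tac2 and Th were detected in every library, and Kiss1, at 0.117 to 0.434 CPM at P60 and 0.0311 to 0.113 CPM at P12, was too low to test.

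**Figure D1:**
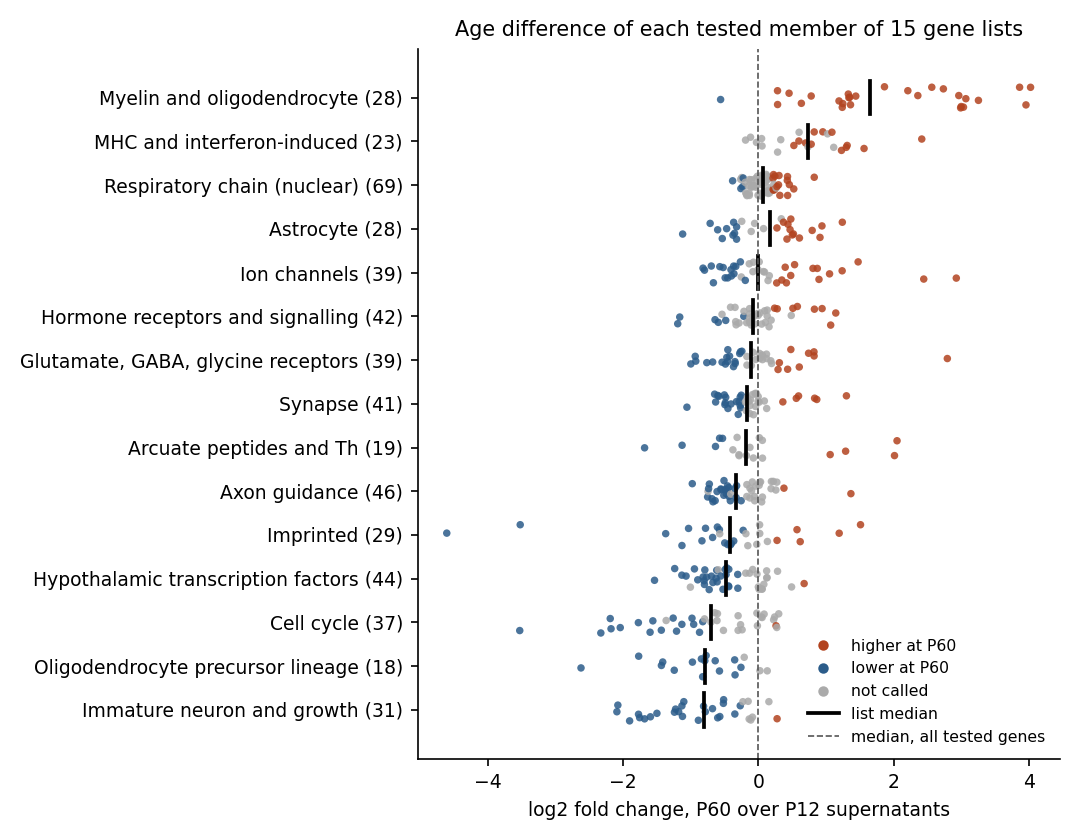
Log2 fold change of P60 over P12 supernatants (x axis) for each tested member (point) of 15 gene lists (y axis, number tested in brackets), with the list median as a black bar and the median of all 15251 tested genes as a dashed line. Myelin members lie almost wholly to the right (median 1.65), and immature neuron, precursor lineage and cell cycle members mostly to the left (medians -0.81, -0.78 and -0.70).

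The plot of the lists gives the order of the groups. Myelin genes moved furthest upward, genes of growing neurons and of the precursor lineage furthest downward, and lists of hormone receptors, ionotropic receptors, channels and synaptic genes had medians of -0.07, -0.10, -0.00 and -0.16, with members moving both ways.

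Myelin is the lipid-rich sheath that mature oligodendrocytes wrap around axons. Precursors marked by Pdgfra pass through a short committed stage marked by Gpr17 before they make it. Of 28 myelin and oligodendrocyte genes tested, 27 were higher at P60 and 1 was lower, with a median log2 fold change of 1.65. Over all genes 41.6% were called, but this list was chosen with earlier results of these data known. Their summed level was 3380 to 3508 CPM at P60 and 1444 to 1595 CPM at P12. The size of the difference varied widely between members. Mbp, which encodes myelin basic protein of compact myelin, had 652, 633 and 594 CPM at P60, against 535, 518 and 444 CPM at P12. The groups did not overlap, but the log2 fold change was only 0.29 ± 0.07 (edgeR adjusted p = 0.0014). Mog, which is made late and sits on the outer face of myelin, had 40.1, 41.5 and 43.1 CPM at P60, against 9.46, 11 and 12.5 CPM at P12 (log2 fold change 1.87 ± 0.12). Mag, for a glycoprotein that faces the axon, and Mobp, for a basic protein of compact myelin, were higher by 1.19 and 0.64 on the log2 scale.

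The largest differences among these genes were in members nearly absent at P12. Opalin, which encodes a glycoprotein of the late oligodendrocyte membrane, had 18.8, 23.1 and 20.7 CPM at P60, against 1.14, 1.43 and 1.13 CPM at P12 (log2 fold change 4.03 ± 0.19, edgeR adjusted p = 4.42e-17). Hapln2, a link protein of the matrix at nodes of Ranvier, had 19.4, 20.3 and 15.9 CPM at P60, against 1.68, 0.622 and 1.25 CPM at P12, a 15.5-fold difference. Trf, for the iron carrier transferrin, had 110.5, 116 and 115 CPM at P60, against 7.11, 7.02 and 8.48 CPM at P12 (log2 fold change 3.86 ± 0.10). Ermn, for the cytoskeletal protein ermin, had 116, 144 and 128 CPM at P60, against 15.4, 11.5 and 12.8 CPM at P12. In each of these genes every P60 library stood at least several-fold above every P12 library. Gal3st1, the sulfotransferase that makes the myelin lipid sulfatide, was the exception in the list, with 10.7, 15.3 and 12.6 CPM at P60, against 21, 15.9 and 18.7 CPM at P12 (log2 fold change -0.56 ± 0.14).

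The precursor and committed stages moved the other way. Of 18 genes of the precursor lineage, 15 were lower at P60, none was higher, and the median log2 fold change was -0.78. Gpr17 had 17.4, 18.1 and 19.7 CPM at P60, against 112, 99.9 and 117 CPM at P12, a 6.14-fold lower level at P60. Pdgfra, the receptor for the growth factor on which precursors depend, had 19.5, 19.3 and 18.8 CPM at P60, against 40.7, 56.5 and 52.8 CPM at P12. Cspg4, for the NG2 proteoglycan of the same cells, had 6.04, 5.71 and 5.39 CPM at P60, against 12, 16.7 and 15.3 CPM at P12. Bmp4, a ligand made by committed precursors, was lower by 3.4-fold, and Bcas1, of early myelinating cells, had 60.1, 61.9 and 46.8 CPM at P60, against 104, 109.7 and 108 CPM at P12. All of these groups were without overlap.

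**Figure D2:**
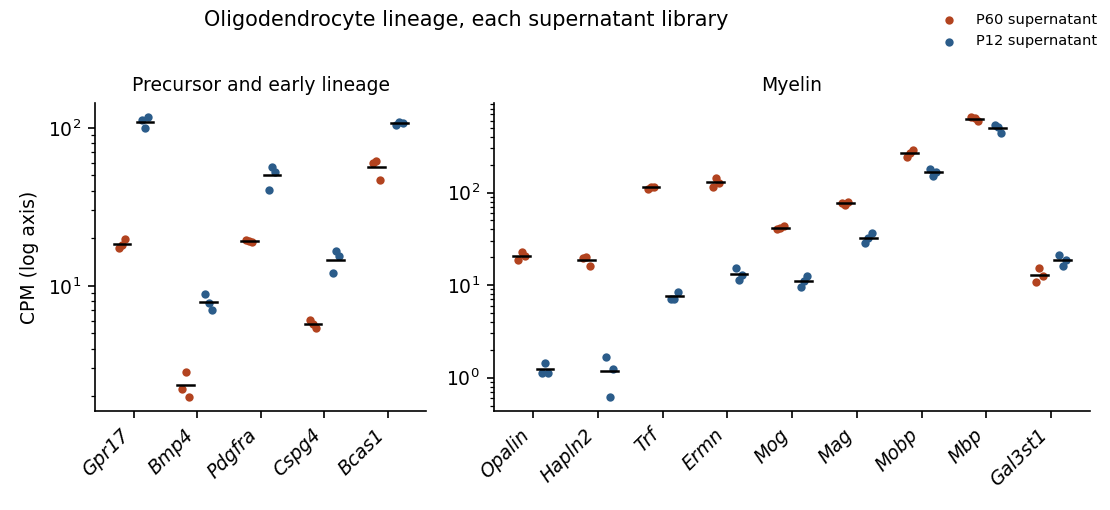
CPM (y axis, log scale) of 5 precursor or early-lineage genes and 9 myelin genes in each supernatant library, P60 points left of P12 points, bars at the mean of 3. The 5 early genes are lower at P60 without overlap, and 8 of the 9 myelin genes are higher.

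The plot of the oligodendrocyte lineage shows both movements library by library. Replicates of an age lay close together, and the age differences of Mog and Opalin were far wider than the spread of the replicates.

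Other genes among the 15 strongest rises were in none of the lists. Serpinb1a, a serine protease inhibitor, had the largest log2 fold change, 4.44 ± 0.28 (chr13:32842092-32853206 in GRCm38), with 8.8, 12.7 and 11.4 CPM at P60, against 0.715, 0.373 and 0.426 CPM at P12. Anln, for the septin-binding scaffold anillin, had 58.6, 70.2 and 58.6 CPM at P60, against 4.5, 5.75 and 5.48 CPM at P12. Tmem63a, a mechanically gated ion channel, had 25.8, 21.1 and 22.4 CPM at P60, against 1.01, 1.58 and 2.38 CPM at P12. Efhd1, a calcium-binding protein of mitochondria, rose 13.8-fold, the small GTPase Rab37 rose 13.1-fold, the glycosyltransferase Galnt6 rose 11.7-fold, the integrin subunit Itgb4 rose 10.5-fold and the transporter Abca8a rose 9.86-fold. Agxt2l1, now Etnppl, encodes an ethanolamine phosphate lyase of astrocytes and had 16.3, 23.1 and 27.4 CPM at P60, against 1.35, 2.05 and 2.27 CPM at P12. A further gene of the 15, 9330117O12, carries only a clone name and rose 10.9-fold.

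The growth phase of neurons depends on tubulins, microtubule regulators and growth cone proteins. Of 31 tested genes of immature neurons and growth, 24 were lower at P60 and 1 was higher, with a median log2 fold change of -0.81. Their summed level was 6164 to 6278 CPM at P60 and 11091 to 11599 CPM at P12. Tubb2b, a tubulin of migrating and growing neurons, had 51.6, 56.1 and 57.4 CPM at P60, against 200.2, 232 and 249 CPM at P12 (log2 fold change -2.09 ± 0.09, edgeR adjusted p = 6.81e-18). D0H4S114, now Nrep, a neuronal regeneration related protein, had 41.7, 45.4 and 39.5 CPM at P60, against 176, 177 and 165 CPM at P12. The levels at P60 were 4.25-fold and 4.21-fold lower, without overlap. Dpysl5, a collapsin response mediator, had 87, 81.3 and 90.9 CPM at P60, against 304, 290.4 and 264 CPM at P12. Dcx, for doublecortin, which marks young neurons, had 47.9, 36.6 and 40.8 CPM at P60, against 99.3, 88.1 and 95.3 CPM at P12. Fabp7, a fatty acid binding protein of radial glia and young astrocytes, was lower by 3.73-fold. The member higher at P60, Zbtb20, a repressor of glia and adult neurons, was at 0.28 ± 0.10 and was not called without P12 supernatant 2, P12 supernatant 3 or P60 supernatant 1. Gap43 and Sox11, a growth cone protein and a transcription factor of young neurons, were lower by less, at -0.60 ± 0.07 and -0.51 ± 0.09 on the log2 scale.

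Guidance cues and receptors were also lower more often than higher. Of 46 axon guidance genes, 23 were lower, 2 were higher, and the median log2 fold change was -0.32. Among the cues, Sema3a, a repellent, was at -0.55 ± 0.14, Slit2, the ligand of Robo receptors, at -0.51 ± 0.09, and Efna2, an ephrin, at -0.97 ± 0.19. Among the receptors, Nrp1, which binds Sema3a, was at -0.72 ± 0.09, Plxna1, its signalling partner, at -0.75 ± 0.08, and Dcc, the netrin receptor, at -0.44 ± 0.08. Robo1 was not called, with 86.8, 80.6 and 76.2 CPM at P60, against 74.3, 79.96 and 73.6 CPM at P12. The exceptions were the netrin receptor Unc5b, with 27.9, 23.8 and 23.7 CPM at P60, against 9.12, 9.23 and 9.79 CPM at P12, and Sema6d, higher by 0.38 on the log2 scale.

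The cytoskeleton list moved both ways, with 8 of 24 members higher and 9 lower. Mtap1b, now Map1b, a microtubule protein of growing axons, had 3452, 3160 and 3257 CPM at P60, against 4603, 4847 and 4349 CPM at P12, and Tubb5 was lower by 1.65-fold. Tubb4a, a tubulin enriched in mature brain and oligodendrocytes, had 1235, 1261 and 1194 CPM at P60, against 746, 707 and 578 CPM at P12, and Kif5a, a motor of long axons, had 1824, 1812 and 1677 CPM at P60, against 1098, 1146 and 1075 CPM at P12. Neurofilament subunits split by size. Nefl, the light chain, was at -0.25 ± 0.07 on the log2 scale, Nefm, the medium chain, at 0.29 ± 0.08, and Nefh, the heavy chain of thick axons, at 0.43 ± 0.07.

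Dividing cells in the postnatal hypothalamus are few and mostly glial, and the genes of S phase and mitosis were low. Of 37 tested cell cycle genes, 16 were lower at P60, 1 was higher, and the median log2 fold change was -0.70. Mki67, the proliferation marker, had 2.7, 1.38 and 1.18 CPM at P60, against 7.69, 6.71 and 8.43 CPM at P12 (log2 fold change -2.18 ± 0.26). Top2a, the topoisomerase that untangles chromosomes before mitosis, had 1.7, 1.74 and 0.867 CPM at P60, against 6.94, 3.98 and 6.61 CPM at P12. Cdk1, the mitotic kinase, had 0.176, 0.357 and 0.248 CPM at P60, against 1.09, 1.27 and 1.56 CPM at P12, and Ccna2, its S and G2 phase cyclin, 1.11, 1.56 and 0.619 CPM at P60, against 3.2, 3.7 and 4.26 CPM at P12. The values of each did not overlap, but at under 10 CPM they rest on few reads. Cenpf, a kinetochore protein, was lower by 2.94-fold. Ccnd1, the G1 cyclin that many non-dividing brain cells also make, had 36.7, 36.3 and 33.8 CPM at P60, against 31, 25.7 and 29.6 CPM at P12, and was not called without P12 supernatant 2, P60 supernatant 1 or P60 supernatant 2.

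Promoters of late cell cycle genes often hold a cell cycle homology region near the start site, which the DREAM and MuvB complexes bind, and before it boxes bound by NF-Y. The homology region was searched as TTTGAA and in the palindromic form, found at some promoters, that reads TTCGAA instead. The box bound by NF-Y was searched as CCAAT, and all motifs on both strands. RefSeq (GRCm38.p6) gave a promoter for 31 of the 38 listed genes. In the 250 bases before the start site, the homology region was present in 11 of 31 (35.5%) and the NF-Y box in 26 of 31 (83.9%), against 17.4% and 34.5% of 27025 promoters. Both were present in 6 of the 14 members lower at P60 that had a promoter, 42.9%, in 5 of 16 members that were not lower, and in 6.21% of all promoters. The motifs do not overlap each other in sequence, and a match is a description and not a bound site. The 5 promoters with both elements whose genes fell with the lowest adjusted p are shown for these elements, 5′ to 3′ and ending at the base before the start site, with every match to these motifs in capitals.
Mki67 (chr7:135716380-135716629, - strand): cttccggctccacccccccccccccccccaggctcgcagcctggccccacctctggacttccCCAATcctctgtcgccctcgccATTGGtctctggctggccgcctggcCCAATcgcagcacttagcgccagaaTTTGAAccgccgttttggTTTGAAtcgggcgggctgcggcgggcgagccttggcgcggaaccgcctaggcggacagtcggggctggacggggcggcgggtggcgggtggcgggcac
Top2a (chr11:99024190-99024439, - strand): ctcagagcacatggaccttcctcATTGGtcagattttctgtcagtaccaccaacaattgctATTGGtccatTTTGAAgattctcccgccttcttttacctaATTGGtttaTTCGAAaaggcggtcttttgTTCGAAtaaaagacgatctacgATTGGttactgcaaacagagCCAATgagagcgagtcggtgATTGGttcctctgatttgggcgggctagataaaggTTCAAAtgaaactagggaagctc
Hmgb2 (chr8:57511593-57511842, + strand): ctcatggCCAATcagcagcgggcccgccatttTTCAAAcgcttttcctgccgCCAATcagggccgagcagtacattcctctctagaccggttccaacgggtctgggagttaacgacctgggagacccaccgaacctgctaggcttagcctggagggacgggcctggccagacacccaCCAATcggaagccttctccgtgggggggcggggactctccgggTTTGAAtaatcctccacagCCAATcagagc
Kif11 (chr19:37376132-37376381, + strand): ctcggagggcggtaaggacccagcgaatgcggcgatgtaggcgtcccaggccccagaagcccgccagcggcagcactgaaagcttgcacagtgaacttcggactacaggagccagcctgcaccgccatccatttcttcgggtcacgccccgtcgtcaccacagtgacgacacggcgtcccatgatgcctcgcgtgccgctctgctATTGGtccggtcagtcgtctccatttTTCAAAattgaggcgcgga
Cdk1 (chr10:69352913-69353162, - strand): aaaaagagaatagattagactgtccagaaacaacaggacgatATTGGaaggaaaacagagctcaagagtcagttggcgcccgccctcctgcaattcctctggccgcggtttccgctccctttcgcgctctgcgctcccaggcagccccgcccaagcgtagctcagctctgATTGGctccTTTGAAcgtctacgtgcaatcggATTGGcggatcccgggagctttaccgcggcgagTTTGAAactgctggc

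In these letters the Top2a window holds the densest run of both elements, and that of Kif11 holds a single copy of each. Kif11, a motor of the mitotic spindle, and Hmgb2, a chromatin protein of dividing cells, were at -1.13 and -0.82 on the log2 scale, smaller changes than the -2.33 of Cdk1, the -2.18 of Mki67 and the -2.04 of Top2a.

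DNA methylation is rewritten in neurons during the first weeks after birth, when Dnmt3a adds methyl groups outside CG sites. Of 41 chromatin genes, 15 were lower at P60, 9 were higher, and the median log2 fold change was -0.16. Dnmt3a (chr12:3801559-3914443 in GRCm38), the de novo methyltransferase, had 191, 175 and 185 CPM at P60, against 888, 899 and 844 CPM at P12, a 4.92-fold lower level at P60 (edgeR adjusted p = 4.16e-21). Tet1, which oxidises methylcytosine, had 42, 45.8 and 46.9 CPM at P60, against 245, 212 and 222 CPM at P12. Both were among the 15 strongest falls at 5 CPM or more, and replicates of each age lay within a narrow range. Tet3 was lower by 1.71-fold and Dnmt1, the maintenance enzyme, by 1.46-fold. The catalytic subunits of Polycomb repressive complex 2 differed. Ezh1, known from non-dividing cells, had 86.1, 71.9 and 74.3 CPM at P60, against 45.1, 41.8 and 40.5 CPM at P12, and Ezh2, known from dividing cells, was not called, with 13.2, 19 and 14.6 CPM at P60, against 15.9, 14.2 and 14.5 CPM at P12.

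Imprinted genes are expressed from the copy of 1 parent, and several act on growth before and shortly after birth. Of 29 tested, 17 were lower at P60, 5 were higher, and the median log2 fold change was -0.41. Mkrn3 (chr7:62417593-62420153 in GRCm38), the makorin gene whose loss causes early puberty in humans, had the largest of the 15 strongest falls, with 0.997, 1.16 and 0.929 CPM at P60, against 24, 29 and 20.9 CPM at P12 (log2 fold change -4.60 ± 0.19, edgeR adjusted p = 5.59e-18). Every P12 library held over 20 CPM and every P60 library close to 1 CPM. H19 (chr7:142575530-142578146), a long non-coding RNA of fetal tissue, had 3.17, 1.11 and 0.681 CPM at P60, against 24.9, 16.3 and 13.7 CPM at P12, and its neighbour Igf2, the growth factor made by meninges and choroid plexus, had 110.2, 96.4 and 83.3 CPM at P60, against 142, 111 and 123 CPM at P12. Mest, a paternally expressed hydrolase gene, was lower by 2.58-fold and Inpp5f, a phosphoinositide phosphatase, by 2.18-fold. Of the 5 rises, 1 was in Impact, at 0.28 ± 0.07 on the log2 scale. The others were in Dlk1, a membrane ligand that restrains fat cell formation, with 234, 212 and 244 CPM at P60, against 108, 94 and 90.6 CPM at P12, in Ddc, an enzyme of dopamine synthesis, in the non-coding Peg13, with 719.8, 682 and 667 CPM at P60, against 461, 434 and 412 CPM at P12, and in Sgce, at 0.57 ± 0.14 on the log2 scale.

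Lin28b, Igf2bp and Mycn genes hold early developmental states. Of 7 tested members of this small list, 3 were lower at P60 and none was higher. The share called, 42.9%, was close to the 41.6% of all tested genes. Igf2bp2 was at -1.90 ± 0.31, Mycn at -0.95 ± 0.15 and Igf2bp3 at -0.63 ± 0.17 on the log2 scale. Lin28b, whose human gene is also linked to the timing of puberty, was not called, with 15.2, 16.1 and 14.7 CPM at P60, against 14.8, 15.8 and 18 CPM at P12.

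**Figure D3:**
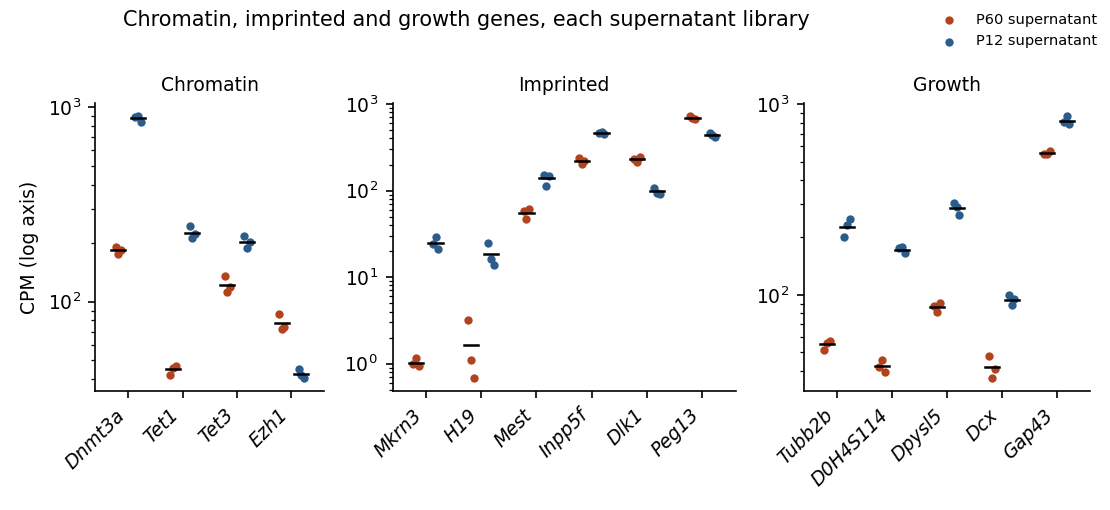
CPM (y axis, log scale) of 4 chromatin genes, 6 imprinted genes and 5 growth genes in each supernatant library, P60 points left of P12 points, bars at the mean of 3. Mkrn3 and H19 show the widest gaps, and Ezh1, Dlk1 and Peg13 are the members higher at P60.

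The plot of chromatin, imprinted and growth genes shows that the groups did not overlap for any of its 15 genes. H19 varied most between P60 libraries, and without P60 supernatant 1 its log2 fold change was -4.30, against -3.52 ± 0.27 with it.

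Transcription factors that pattern the hypothalamus were mostly lower at P60. Of 44 tested, 27 were lower, 1 was higher, and the median log2 fold change was -0.48. Onecut3 was at -1.53 ± 0.17 on the log2 scale, Dlx1, of GABA neurons, at -1.23 ± 0.10, Lhx6, of another set of GABA neurons, at -1.13 ± 0.17, and Sox3, of neural progenitors and the developing hypothalamus, at -1.07 ± 0.21. Isl1, which switches on Pomc in the embryo, had 24.6, 25.5 and 27.6 CPM at P60, against 36.5, 40.00 and 38.8 CPM at P12. Nkx2-1, which specifies the ventral hypothalamus, had 49.3, 38.8 and 38.7 CPM at P60, against 66.7, 42.7 and 43.2 CPM at P12. These overlapped, and its call (log2 fold change -0.30 ± 0.12) was lost in 5 of 13 alternatives, among them those without P60 supernatant 2, P60 supernatant 3 or P12 supernatant 1. In the last of these it was -0.09. Nr4a2, of dopamine neurons, was the member called higher, with 33.5, 31.5 and 24.7 CPM at P60, against 22.1, 18.3 and 14.4 CPM at P12. A further member was called higher without P12 supernatant 1 or P60 supernatant 2, which made 2.

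The arcuate dopamine neurons, which inhibit prolactin release, make dopamine from tyrosine with Th and Ddc and take it up with Slc6a3. Th (chr7:142892779-142899995 in GRCm38), the rate-limiting enzyme, had 99.4, 115 and 73.5 CPM at P60, against 21.7, 25.1 and 20.6 CPM at P12, a 4.15-fold difference (edgeR adjusted p = 3.28e-15). Ddc had 85.7, 99.8 and 72.9 CPM at P60, against 27.8, 33.4 and 26.7 CPM at P12. Slc6a3, the dopamine transporter, had 59.5, 56.8 and 45.7 CPM at P60, against 7.44, 10.2 and 8 CPM at P12, a 6.09-fold difference. Drd2, the dopamine receptor that is also an autoreceptor on these cells, had 18.5, 19.2 and 16.6 CPM at P60, against 11.2, 9.23 and 9.36 CPM at P12. P60 supernatant 3 was the lowest of the P60 libraries for all 4 genes, and still lay above every P12 library. These 4 genes were chosen with their values known. Lmx1a and Foxa1, transcription factors of midbrain dopamine neurons, were not called, at 0.01 ± 0.14 and 0.27 ± 0.15. Nr4a2, another transcription factor of dopamine neurons, was higher, at 0.68 ± 0.13.

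Of 19 tested genes of arcuate peptides, including Th, 4 were higher at P60 and 5 were lower (3 without P12 supernatant 2). Pomc, the prohormone gene of the labelled cells, had 26.1, 18.4 and 60.3 CPM at P60, against 7.9, 7.71 and 9.36 CPM at P12. P60 supernatant 3 held more than each of the other 5 libraries, and without it the log2 fold change was 1.35, against 2.01 ± 0.24 with it. Pomc is also a pituitary gene. The summed level of 10 pituitary markers was 3.87 to 6.02 CPM at P60 and 3.14 to 4.45 CPM at P12. Of the 10, 7 were too low to test, and Pou1f1 and Gnrhr had no count. Gh and Fshb averaged 0.281 and 0.219 CPM at P60, against 0.0104 and 0.014 CPM at P12, and Lhb 0.209 against 0.246 CPM. Of the 3 tested, Tbx19 was lower, at -1.49 ± 0.56, and was called in 6 of 13 alternatives. Pitx1 and Cga were not called, at 0.86 ± 0.35 and 0.14 ± 0.64. The part of pituitary tissue in the Pomc values was not tested. Cartpt, which POMC and other hypothalamic neurons make, had 47.3, 38 and 59.5 CPM at P60, against 23.5, 19.5 and 24 CPM at P12, and Tac2, the neurokinin B gene of KNDY neurons, had 10.7, 8.21 and 11.8 CPM at P60, against 4.46, 3.73 and 3.94 CPM at P12.

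Several peptides of the neighbouring arcuate neurons did not pass the test. Agrp had 6.45, 3.7 and 5.45 CPM at P60, against 7.02, 8.05 and 3.66 CPM at P12, and Npy, made by the same neurons, had 21.5, 17 and 17.8 CPM at P60, against 20.7, 21.6 and 23.9 CPM at P12, which overlapped. Ghrh, which drives growth hormone release, had 3.05, 1.74 and 3.22 CPM at P60, against 3.36, 3.29 and 3.29 CPM at P12, and Sst, which restrains it, had 96.4, 92.8 and 91.7 CPM at P60, against 82, 88.4 and 90.02 CPM at P12. The ages did not overlap for Ghrh and Sst, and they did for Gal and Pdyn, which were not called either. Members called lower were Calcr, the calcitonin receptor, at -1.13 ± 0.17 on the log2 scale, Trh, at -0.57 ± 0.13, and Nts, for neurotensin, at -0.53 ± 0.14.

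Peptides of other hypothalamic nuclei moved both ways, with 4 of 17 tested genes higher (2 without P12 supernatant 1) and 5 lower (3 without P60 supernatant 2). Hcrt, for the orexins of the lateral hypothalamus, had 51.2, 44.9 and 63.3 CPM at P60, against 21.7, 18.6 and 19.8 CPM at P12, and its receptor gene Hcrtr1 had 2.93, 2.1 and 2.35 CPM at P60, against 10.8, 7.27 and 10.9 CPM at P12, so that ligand and receptor moved in opposite directions. Cck had 30.2, 31.1 and 30.5 CPM at P60, against 12.5, 19.5 and 13.4 CPM at P12. Avp, for vasopressin, had 16.7, 17.9 and 24.7 CPM at P60, against 38.6, 54.5 and 60.7 CPM at P12 (log2 fold change -1.43 ± 0.14). Oxt, its neighbour in the genome, was not called, with 13.1, 12.1 and 13.1 CPM at P60, against 11.1, 18.6 and 16.9 CPM at P12. The log2 fold change of Oxt was -0.34 ± 0.16. It was called in 2 of 13 alternatives, among them that without P12 supernatant 1, at -0.54. Pmch, for the melanin-concentrating hormone of the lateral hypothalamus, had 63.1, 53.8 and 89.1 CPM at P60, against 49.1, 49.6 and 57.7 CPM at P12, and its call (log2 fold change 0.35 ± 0.12) was lost without P12 supernatant 1 or 2, at 0.29 and 0.32, and without P60 supernatant 3, at 0.10. Bdnf and Vgf, which rise with neuronal activity, were at -0.51 ± 0.12 and -0.60 ± 0.08.

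**Figure D4:**
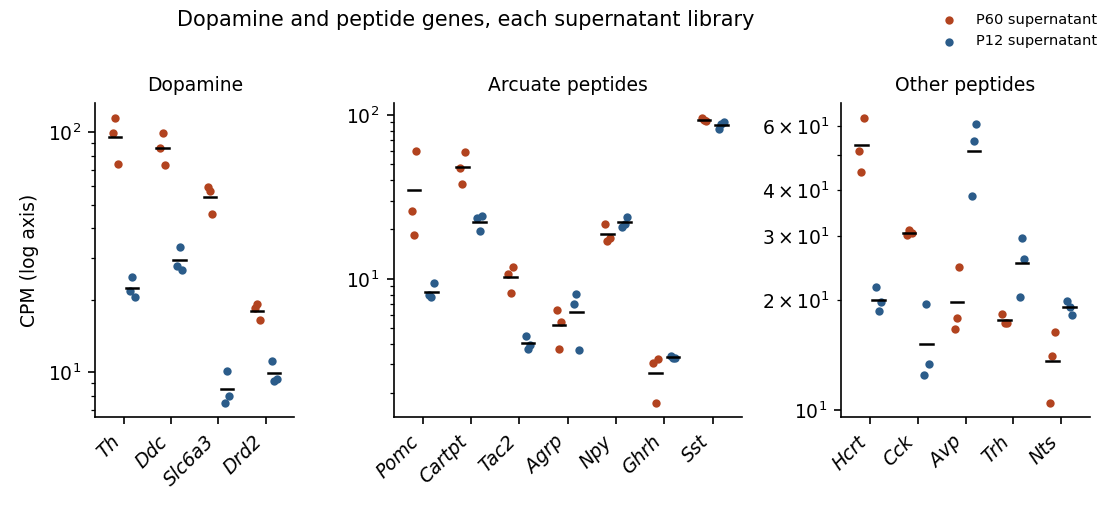
CPM (y axis, log scale) of 4 dopamine genes, 7 arcuate peptide genes and 5 peptide genes of other hypothalamic neurons in each supernatant library, P60 points left of P12 points, bars at the mean of 3. The 4 dopamine genes, Pomc, Cartpt, Tac2, Hcrt and Cck are higher at P60 without overlap, and Avp, Trh and Nts are lower.

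The plot of dopamine and peptide genes shows Agrp and Npy with overlapping ages, Ghrh and Sst with values close together, and Pomc with the widest spread among P60 libraries.

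In the list of hormone receptors and their signalling genes, 8 of 42 tested members were higher and 6 lower. Together 33.3% were called, against 41.6% of all tested genes. Lepr, the leptin receptor, had 5.45, 6.91 and 4.96 CPM at P60, against 6.81, 4.63 and 5.73 CPM at P12, and Insr, the insulin receptor, had 59.99, 52.8 and 56.9 CPM at P60, against 54.2, 48.9 and 55.5 CPM at P12. Neither differed by more than its spread, and the log2 fold changes were -0.01 ± 0.21 and 0.05 ± 0.08. Ghsr, Mc3r, Mc4r, Esr1, Pgr and Prlr were not called either. Of the adaptors of insulin signalling, Irs4 and Irs1 were lower, while Irs2 was not called, at -0.12 ± 0.09. Irs4, an adaptor enriched in the hypothalamus, had 127, 102 and 123 CPM at P60, against 281, 266 and 233 CPM at P12, and Irs1 had 56.6, 53.2 and 51.5 CPM at P60, against 120.3, 116 and 113.5 CPM at P12. Some nuclear receptors rose. Thrb, the thyroid hormone receptor whose beta-2 form acts in the hypothalamus, had 62.4, 52.7 and 52.3 CPM at P60, against 29.9, 21 and 22.8 CPM at P12, and Nr3c2, the mineralocorticoid receptor, had 37.5, 33.8 and 29.9 CPM at P60, against 19.1, 15.9 and 16.1 CPM at P12.

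Thyroid hormone times much of postnatal brain maturation. Of 16 tested genes of thyroid hormone transport, conversion and response, 3 were higher at P60 and 8 were lower. The count of lower members was 5, 4 and 3 without P12 supernatant 2, P60 supernatant 2 and P60 supernatant 3. Hr, the corepressor gene induced by the hormone, had 64.7, 48.7 and 51.3 CPM at P60, against 34.6, 35.5 and 29.8 CPM at P12, and Sema7a had 36.8, 31.9 and 33.1 CPM at P60, against 14.5, 16 and 13.3 CPM at P12. Klf9, another gene the hormone induces, was not called, with 101, 90.1 and 88.9 CPM at P60, against 97.6, 99.9 and 78.4 CPM at P12. Flywch2 was at -0.72 ± 0.10 and Ky at -0.79 ± 0.18 on the log2 scale. Dio3, which inactivates the hormone, was too low to test.

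Ionotropic receptors change subunits as synapses mature. Of 39 tested receptor and chloride transporter genes, 9 were higher at P60 and 17 lower, and the median log2 fold change was -0.10. Among GABA receptors, Gabrd, for the delta subunit of extrasynaptic receptors, had 5.57, 3.08 and 5.27 CPM at P60, against 0.631, 0.777 and 0.511 CPM at P12, a 6.94-fold difference at low counts. Gabra5, another subunit of extrasynaptic receptors, had 41.1, 34.7 and 37.7 CPM at P60, against 63.7, 65 and 57.6 CPM at P12. The delta and alpha-5 subunits thus moved in opposite directions, and Gabra2 was not called, at -0.17 ± 0.12. Glycine receptor subunits did likewise, with the adult Glra1 at 0.74 ± 0.16 and the early Glra2 at -0.92 ± 0.12. Of the chloride transporters, Slc12a5 (KCC2), which lowers neuronal chloride, was not called, with 397, 341 and 339.8 CPM at P60, against 316, 317 and 327 CPM at P12, and Slc12a2 (NKCC1), which raises it and is also made by oligodendrocytes, had 76.5, 84.1 and 89.4 CPM at P60, against 45.3, 43 and 48.5 CPM at P12.

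Among NMDA receptor genes the obligatory Grin1 was not called, with 135, 118 and 129 CPM at P60, against 138, 132 and 121 CPM at P12. Grin2c was higher, with 10.1, 11.6 and 14.5 CPM at P60, against 6.14, 7.46 and 6.21 CPM at P12, and Grin2d was lower, with 38, 36 and 30.2 CPM at P60, against 49, 50.1 and 61.6 CPM at P12. Grin2a and Grin2b, whose balance shifts during forebrain maturation, had log2 fold changes of 0.29 ± 0.09 and -0.27 ± 0.08. Both differences were small. The call of Grin2a was lost without P60 supernatant 1, at 0.23, and that of Grin2b without P60 supernatant 2, at -0.19, and with length and GC offsets, at -0.17. Grik1, a kainate receptor subunit, was lower by 1.99-fold.

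Voltage-gated channels moved both ways as well, with 14 of 39 higher and 15 lower. Scn4b, the sodium channel beta-4 subunit tied to fast firing, had 28, 22.7 and 25.1 CPM at P60, against 3.28, 2.46 and 3.86 CPM at P12, a 7.61-fold difference (edgeR adjusted p = 2.75e-15). Kcnab3, a subunit that modifies Kv1 channels, had 53.4, 53 and 43.9 CPM at P60, against 10.1, 9.23 and 7.55 CPM at P12, and Kcna1, a Kv1 channel of axons, had 120.2, 121 and 127 CPM at P60, against 42.5, 43.7 and 42.3 CPM at P12. Hcn2, a pacemaker channel, had 239, 214 and 203 CPM at P60, against 88.2, 84.5 and 96.2 CPM at P12. The rises were of large size in these 4 genes, and their libraries did not overlap. Among sodium channel alpha subunits, the embryonic Scn3a was at -0.82 ± 0.08, Scn2a1, now Scn2a, at -0.33 ± 0.08 and Scn1a at 0.42 ± 0.07, while Scn8a was not called, at -0.00 ± 0.07. The T-type calcium channel gene Cacna1g, with 109, 103 and 109 CPM at P60, against 163, 147 and 182 CPM at P12, and the auxiliary subunit gene Cacng4, at -0.79 ± 0.10, were lower. Prkcd and Rora, both abundant in thalamus, were higher at P60 too, at 3.44 ± 0.15 and 0.73 ± 0.09, while of the other thalamic genes on the list of other regions Lhx9 was lower, at -0.88 ± 0.15, and Gbx2 was not called, at 0.23 ± 0.19. Also higher was Slc17a7, the vesicular glutamate transporter of cortex and thalamus, with 31.1, 23.4 and 21.6 CPM at P60, against 9.96, 13.1 and 7.26 CPM at P12.

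**Figure D5:**
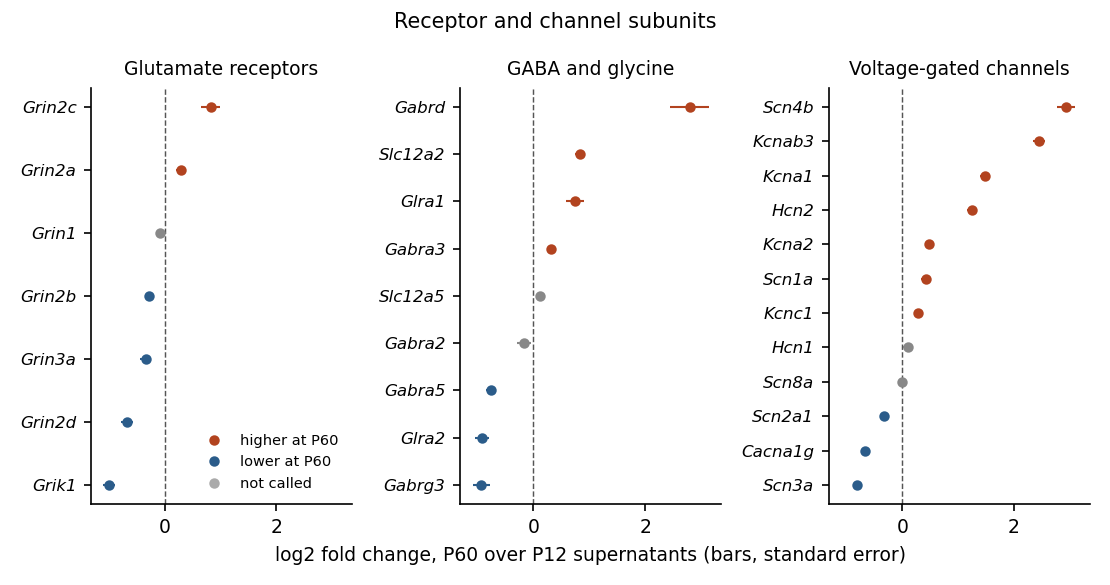
Log2 fold change of P60 over P12 supernatants (x axis, bars are the standard error) for glutamate receptor genes, GABA and glycine genes and voltage-gated channel genes (y axis). Each family holds members called higher, such as Grin2c, Gabrd and Scn4b, and members called lower, such as Grin2d, Gabra5 and Scn3a.

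The plot of subunits shows that the families split inside themselves and that the largest values, those of Gabrd, Scn4b and Kcnab3, were all rises.

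Synaptic genes were lower more often than higher, 18 against 6 of 41 tested. Snap25, a SNARE protein of transmitter release, had 1610, 1812 and 1820 CPM at P60, against 1034, 983 and 785 CPM at P12, and Cplx1, a complexin that clamps it, had 798, 871 and 732 CPM at P60, against 319, 317 and 308 CPM at P12. Stx1a, the partner of Snap25 in the plasma membrane, had 83.7, 77 and 79.8 CPM at P60, against 158, 163 and 163 CPM at P12. Partners in the same complex therefore moved in opposite directions. Syt2, a fast calcium sensor, was at 0.83 ± 0.09 and Vamp1, a vesicle SNARE of fast synapses, at 0.60 ± 0.08, while the scaffolds Shank3 and Dlg2 were at -0.64 ± 0.07 and -0.60 ± 0.07. The common presynaptic genes Syp and Syt1 and the scaffold Dlg4 were not called, at -0.07 ± 0.08, 0.00 ± 0.08 and -0.05 ± 0.07. Of calcium-binding genes, Pvalb, of fast-spiking neurons, had 39.8, 52.3 and 43.5 CPM at P60, against 9.96, 11.1 and 11.2 CPM at P12, and Camk4, a kinase that signals to the nucleus, had 101, 95.2 and 113 CPM at P60, against 285, 269 and 218 CPM at P12. Gad2, an enzyme of GABA synthesis, had 408, 409 and 386 CPM at P60, against 564, 564 and 505 CPM at P12, and Gad1 and the transporters Slc32a1 and Slc17a6 were not called.

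The matrix around neurons changed in composition, with 10 of 18 perineuronal and embryonic matrix genes lower and 3 higher. Ncan, for the early proteoglycan neurocan, had 52.5, 35.9 and 43.9 CPM at P60, against 116, 121 and 123 CPM at P12. Tnc, for tenascin-C, was lower by 2.23-fold and Vcan, for versican, by 1.66-fold. Hapln4, a link protein of perineuronal nets, was higher, with 72.8, 61 and 62 CPM at P60, against 34.8, 31.9 and 25.6 CPM at P12, and Acan, for the aggrecan of those nets, was not called, with 6.27, 2.81 and 6.38 CPM at P60, against 3.24, 5.07 and 4.37 CPM at P12. Of 29 collagen and basement membrane genes, 12 were lower and 4 higher (2 without P12 supernatant 1 or P60 supernatant 2), with Col3a1 at -1.15 ± 0.20 and Col18a1 at -1.22 ± 0.26. Eln, for elastin, had 2.23, 2.19 and 2.23 CPM at P60, against 8.45, 10.7 and 9.5 CPM at P12.

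Astrocyte genes divided. Of 28 tested, 13 were higher and 10 lower, with a median log2 fold change of 0.18. Glul, for glutamine synthetase, had 645, 691 and 607 CPM at P60, against 344, 349 and 289 CPM at P12, and Itih3 had 27.3, 29.9 and 29.5 CPM at P60, against 12, 10.7 and 12.9 CPM at P12. The glutamate transporters Slc1a2 and Slc1a3 were lower, at -0.35 ± 0.07 and -0.53 ± 0.11, as was the gap junction gene Gja1, at -0.60 ± 0.11. Gfap and Aqp4 were not called, with 184, 199 and 167 CPM at P60, against 173, 164 and 169 CPM at P12 for Gfap. Of 23 tanycyte and ependymal genes 2 were higher (1 without P60 supernatant 1 or 3 or any 1 P12 supernatant) and 4 lower (2 without P60 supernatant 2 or P12 supernatant 3). Rax, the transcription factor of tanycytes, had 5.34, 2.36 and 4.46 CPM at P60, against 1.43, 0.963 and 1.05 CPM at P12.

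Vascular and immune genes were low in these libraries. Of 21 endothelial genes 5 were lower (3 without P12 supernatant 2) and 1 higher, with Mfsd2a, the lipid transporter of the blood-brain barrier, at -1.19 ± 0.20 and the ligand Apln at 1.58 ± 0.22. Pecam1, Cdh5 and Flt1 were not called. Of 18 mural and meningeal genes 7 were higher (4 without P60 supernatant 2) and 2 lower. Ptgds, the prostaglandin D synthase of meninges and oligodendrocytes, had 265, 309 and 244 CPM at P60, against 68.1, 106 and 79.7 CPM at P12, and Rgs5, of pericytes, had 6.86, 4.86 and 5.2 CPM at P60, against 12.3, 9.14 and 13.4 CPM at P12. The microglial genes Cx3cr1, P2ry12, Tmem119 and Csf1r were not called, and of 21 on that list 3 were higher and 2 lower (1 without P12 supernatant 1 or 2 or P60 supernatant 1 or 2). Spp1, for osteopontin, had 8.15, 8.83 and 6.01 CPM at P60, against 1.18, 2.8 and 0.936 CPM at P12, and its log2 fold change was 2.84 without P12 supernatant 2, against 2.17 ± 0.29 with it. Genes of antigen presentation and interferon response were higher in 12 of 23 tested and lower in none, with a median log2 fold change of 0.74. H2-D1, a class I heavy chain, had 21.2, 23.9 and 27.9 CPM at P60, against 15.6, 18.1 and 15.4 CPM at P12, and Ifit3, which interferon induces, had 3.99, 7.67 and 6.5 CPM at P60, against 1.64, 2.21 and 3.23 CPM at P12.

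Genes of lipid metabolism moved both ways. In the sterol list 9 of 28 were higher and 7 lower (4 without P12 supernatant 3, P60 supernatant 1 or P60 supernatant 3). Insig1, which holds back the sterol-sensing activation of synthesis, and Stard4, a sterol carrier, were at 0.63 ± 0.09 and 0.95 ± 0.11. In the lipid synthesis list 9 of 24 were higher and 6 lower. Scd1, a fatty acid desaturase, had 70.3, 64.1 and 73.8 CPM at P60, against 26.6, 25.5 and 24.9 CPM at P12, Srebf1, its regulator, was at 1.02 ± 0.12, and Elovl4, which elongates very long chains, had 31.3, 29.3 and 34.1 CPM at P60, against 63, 58.7 and 65 CPM at P12. Of 69 nuclear genes of the respiratory chain, 16 were higher (10 without P60 supernatant 2) and 4 lower (1 or 2 without P12 supernatant 1, P12 supernatant 2 or P60 supernatant 1). Together 29.0% were called, against 41.6% of all genes, and the median was 0.08. Sdha, the flavoprotein of complex II, had 586, 569 and 536 CPM at P60, against 333, 315 and 278 CPM at P12, and Cox4i1 was at 0.43 ± 0.07.

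RNA-binding regulators of neuronal splicing were lower in 14 of 34 and higher in 7. Nova1 had 185, 169 and 174 CPM at P60, against 323, 292 and 283 CPM at P12, and Ptbp2 was at -0.28 ± 0.08. Mbnl2 was higher, at 0.48 ± 0.07, and Cpeb1, which controls translation from the RNA tail, had 42.9, 33.8 and 35.7 CPM at P60, against 21.6, 18.3 and 16.3 CPM at P12. Immediate early genes are switched on within minutes of neuronal activity and were lower in 7 of 20 (4 without P12 supernatant 1 or P60 supernatant 3). With the 1 called higher, the share called was 40.0%, close to the 41.6% of all tested genes. Gadd45b, the member called higher, was not called without P60 supernatant 2, P12 supernatant 2 or P12 supernatant 3. Fos, with 26, 11.8 and 13.9 CPM at P60, against 26.2, 22.6 and 17.3 CPM at P12, Egr1, with 80.2, 38.8 and 55.6 CPM at P60, against 85.8, 64.2 and 51.2 CPM at P12, and Arc, with 28.3, 23.6 and 21.8 CPM at P60, against 29.8, 17.6 and 17.1 CPM at P12, overlapped between ages and were not called. Fos was called in 5 of 13 alternatives and Egr1 in 4. Without P60 supernatant 1 both were called lower, at -0.79 and -0.52 on the log2 scale. Arc was called higher without P12 supernatant 1, at 0.43.

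Further strong falls came from genes outside the lists. Traf3, an adaptor of TNF receptors, had 124, 115 and 108 CPM at P60, against 484, 492 and 501 CPM at P12, Cxadr, a cell adhesion receptor, had 18.2, 12.8 and 14 CPM at P60, against 50.2, 58.6 and 70.4 CPM at P12, and Fam38b, now Piezo2, a mechanically gated channel, had 2.7, 2.45 and 1.67 CPM at P60, against 9.12, 8.08 and 11.6 CPM at P12. Dynlt1a had 0.762, 0.401 and 1.11 CPM at P60, against 6.43, 5.87 and 3.97 CPM at P12, but this gene has near-identical copies among which reads may be split, so its level is uncertain.

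The last comparison asked where the age difference in the supernatant was not that of the pull-down, the RNA that the GFP beads took from the same lysates. Over 15311 genes in all 12 libraries, 172 differed, 1.12%. In 105 (0.686%) the difference was higher in the supernatant and in 67 (0.438%) lower. With scaling by library size alone these were 65 and 115, and the median over all genes moved to -0.20. The counts also turned on single preparations, at 50 and 36 without P60 replicate 1, 42 and 22 without P60 replicate 3, and 69 and 151 without P12 replicate 3, while the lower count was 106 without P12 replicate 1 and 119 without P12 replicate 2. Pull-down libraries were more variable, with a coefficient of variation of 61.5% against 9.55% in supernatants. The P12 pull-downs were weakly enriched in Pomc and not in Cartpt. Their Pomc level was 9.83, 21.9 and 81.7 CPM, against 7.9, 7.71 and 9.36 CPM in the supernatants of the same preparations, and their Cartpt level was 13.3, 25.5 and 9.79 CPM, against 23.5, 19.5 and 24 CPM. The part of this low enrichment at P12 in the differences of Pomc, Cartpt and other genes was not tested. Pomc had 3076, 2530 and 4510 CPM in P60 pull-downs, against 9.83, 21.9 and 81.7 CPM in P12 pull-downs, a log2 fold change of 6.27 against 2.01 in supernatants, and the difference in the fit over all 12 libraries was -4.80 ± 0.41 (edgeR adjusted p = 4.85e-07). Cartpt had 1047, 881 and 1002 CPM in P60 pull-downs, against 13.3, 25.5 and 9.79 CPM in P12 pull-downs, and its difference was -4.75 ± 0.32 (edgeR adjusted p = 6.05e-09). Cdr1, at whose locus the opposite strand gives a circular RNA that binds miR-7, went the other way. Whether counting used strand is not given in the sources, so both transcripts cannot be told apart. It had 631, 582 and 682 CPM at P60, against 306, 273 and 245 CPM at P12 in supernatants and 485, 172 and 209.8 CPM in P60 pull-downs, against 516, 751 and 626 CPM in P12 pull-downs, and the difference was 2.63 ± 0.28 (edgeR adjusted p = 6.65e-06). Mkrn3 was lower at P60 in both fractions, with 0, 0 and 0.0927 CPM in P60 pull-downs, against 21.7, 46.9 and 36.3 CPM in P12 pull-downs.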

How the data were processed

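Libraries were made by the authors from total RNA of bead-cleared arcuate lysates with ribosomal RNA depletion and a stranded kit, and read as single ends, although 1 label names polyA RNA. Per the labels, alignment used TopHat2 2.0.13 on mm10, with Bowtie2 at version 2.2.1, and the authors deposited raw counts per gene from HTSeq. Whether counting used strand is not given in the sources used here, so overlapping genes cannot be told apart. Every column of the table was mapped to a sample by its name.

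From these counts, edgeR 4.0.16 in R 4.3.3 gave TMM factors, the filterByExpr filter and the quasi-likelihood test of P60 against P12 in 6 supernatants, with Benjamini-Hochberg adjustment over all tested genes. The difference between fractions was tested over all 12 libraries with the preparation as a block, since pull-down and supernatant share a lysate. Alternatives were DESeq2 1.42.0, other scalings and filters, length and GC offsets from loess fits, a replicate block and leaving out each library. The code was tested on simulated counts. Of simulated 2-fold differences, 81.6% were called for age in supernatants and 39.4% for the difference between fractions. Counts for the latter were simulated with less spread than the 12 libraries, whose coefficient of variation was 45.2%.

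Named genes were the 15 of largest change in each direction at 5 CPM or more without overlap, anchors of 37 lists, and up to 4 members of each list in each direction. Clone and accession names were counted only, 261 higher and 245 lower. 9330117O12 is also a clone name but fell outside the excluded forms. Members and lists were chosen with earlier results of these data known. Some listed genes are not reported here by name.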

Additional observations from a re-analysis of the deposited data

Results flagged for a closer look

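The age difference, P60 over P12, was not the same in supernatants and pull-downs for 172 of 15311 genes (1.12%), by edgeR's quasi-likelihood test of the difference itself over all 12 libraries. Values are supernatant minus pull-down on the log2 scale, for the 8 genes with the largest value in each direction at 5 CPM or more in 1 of the 4 groups.

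Among genes with the higher value in the supernatant, Mkrn3 was at 5.74, Acss3, for an acyl-CoA synthetase, at 7.98, and Avpr1b, for the vasopressin receptor of pituitary corticotrophs, at 3.64. Mkrn3 and Acss3 had no count in 2 of the 3 P60 pull-downs, so both values depend on the prior count of the fit. Avpr1b had 3.7, 1.54 and 6.95 CPM in P60 pull-downs, against 52.6, 56.1 and 42.6 CPM in P12 pull-downs. In supernatants it had 1.64, 1.52 and 2.17 CPM at P60, against 2.19, 2.49 and 2.16 CPM at P12. Cdr1 was at 2.63 and Mlph, for melanophilin, at 2.34. The chromatin genes Bahcc1, Tnrc18 and Arid1b, the last a subunit of BAF remodelling complexes, were at 2.33, 2.28 and 2.28. Arid1b had 1046, 942 and 1026 CPM in P60 pull-downs, against 5117, 3931 and 5588 CPM in P12 pull-downs. In supernatants it had 130.4, 119 and 132 CPM at P60, against 152, 152 and 121 CPM at P12.

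Among genes with the lower value, Npy5r, for a receptor of neuropeptide Y, was at -7.77, and had no count in 2 of the 3 P12 pull-downs, so this value too depends on the prior count. Prdm12, for a transcription factor needed to start Pomc expression in the embryo, was at -6.40, with 116, 70.6 and 59.8 CPM in P60 pull-downs, against 0.317, 3.22 and 0.656 CPM in P12 pull-downs. In supernatants it had 5.63, 4.33 and 5.88 CPM at P60, against 6.81, 8.02 and 6.55 CPM at P12. Its P12 pull-downs thus lay under the P12 supernatants, and the part of this low enrichment was not tested. Pomc and Cartpt were at -4.80 and -4.75. Pon2, a paraoxonase gene, was at -4.41, Il13ra1, for a subunit of the interleukin receptor, at -4.36, Gas2, of the cytoskeleton, at -4.28, and the histone gene Hist1h3f at -4.23. Genes of this histone family have near-identical copies among which reads may be split, so its value is uncertain. The adjusted p of Acss3, Il13ra1 and Hist1h3f was 0.0484, 0.0478 and 0.0453 by the edgeR test, close to the threshold.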

How the results depend on the processing

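The counts of 3182 genes higher and 3168 lower at P60 stayed within 1.5 times in every alternative but the fit of all 12 libraries, which gave 303 and 293. Its coefficient of variation was 45.2%, that of a fit that includes the more variable pull-downs, against 9.55% in the 6 supernatants. Leaving out each supernatant in turn gave 2702 to 2957 higher and 2698 to 2871 lower. Replicate numbers did not pair the ages, since deviations of libraries with the same number correlated at 0.05, 0.00 and 0.02. With the number as a replicate block the counts were 3295 and 3279. None of the 295 named genes called changed sign. Of these, 242 were called in all 13 alternatives other than the fit of all 12 libraries, which called 80. Among the named genes that were not called, 21 were called in some alternative.

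For the difference between supernatant and pull-down, 105 genes were higher and 67 lower, against 65 and 115 with library size alone, 202 and 161 with no filter on low counts, where 19243 genes were tested, 232 and 236 with DESeq2, and 89 and 61 with no replicate block. With library size alone more genes were thus lower than higher. The cause was not tested for scaling or tool. Leaving out each preparation in turn gave 42 to 135 higher, lowest without P60 replicate 3 and highest without P12 replicate 1, and 22 to 151 lower, lowest without P60 replicate 3 and highest without P12 replicate 3.

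Age cannot be told apart from sex mix or from the interval after tamoxifen. Genes under about 1 CPM rest on few reads, and pull-down libraries limit the comparison of fractions. The 3 preparations at each age set the smallest change that the test can call, and a gene that was not called is not shown to be equal.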
